A study of Homo sapiens with 32 samples.

Results

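DEAD and DEAH box proteins are RNA helicases that use ATP to pull apart short duplexes or to strip proteins from RNA, and their names (DDX and DHX) come from a conserved motif of the helicase core. They work at most steps of an mRNA's life: DEAH box members drive the rearrangements and the disassembly of the spliceosome, a large set of nucleolar members helps to assemble ribosomes, and others act in export, translation and decay of mRNA. The genes described here are the transcripts that encode them, studied as RNA bound by export factors and not as proteins. All protein-coding genes of the GRCh37 annotation whose names start with DDX or DHX and a digit were taken, apart from DDX39B, DDX5 and DDX17, which left 51 genes of 20163 protein-coding genes and 64449 genes of all kinds.

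Binding was measured by iCLIP, in which ultraviolet light ties protein to RNA, the protein is pulled down, and the base next to the end of each sequenced cDNA marks the crosslink. One crosslink tag is one distinct cDNA, so a count of tags is a count of molecules after removal of PCR copies. The cells were HEK293T FlpIn lines, a human kidney-derived line in which a construct can be placed at one genomic site, that carried FLAG-tagged Alyref, Chtop or Nxf1 or an empty FLAG construct called Control. Alyref is an adaptor and Chtop a co-adaptor of the TREX complex, which couples transcription and splicing to mRNA export, and Nxf1 is the export receptor. Expression was switched on with tetracycline over 48 h (Alyref and Chtop, 10 ng/mL; Nxf1, 5 ng/mL; the labels give no dose for Control). Each of the 4 groups had 3 libraries; no source says that replicates were separate cultures, so each p-value measures the spread between these libraries only. Depth ran from 81307 to 631704 tags a library in Alyref, 47052 to 538844 in Chtop, 8134 to 179346 in Nxf1 and 7017 to 46628 in Control, with replicate 1 the shallowest of each group. Levels are given as CPM, counts of tags per 1000000 tags of the library. A gene with 0 tags in a library could still have up to 4.75 CPM in the deepest library and up to 428 CPM in the shallowest, counting error only. The data give tags and not RNA levels, so more binding per transcript and more transcript cannot be told apart.

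Of the 51 genes, 49 held at least 1 tag that lay in no other gene on the same strand, 35 held at least 100 and 12 held fewer than 50. The 2 without such a tag were DDX47, whose 108 tags all lay where another gene overlaps it, and DDX53, a germ line gene. The other germ line members, DDX4, DDX25 and DDX43, held few tags, which with DDX53 came to 6 in Alyref, 4 in Chtop, 2 in Nxf1 and 0 in Control libraries, all of them intronic. DDX3Y and DDX3X, DDX19A and DDX19B, and DDX39A and the DDX39B gene left out here are near-identical pairs, and DDX11 has a near-identical pseudogene, so reads of these genes may be lost or misplaced when only unique alignments are kept. DHX33 lost 343 tags to an overlapping gene, DDX19A 74, DDX19B 47 and DDX46 40. The genes were longer than most. Their medians were 17 exons in the canonical transcript, 4352 bases in exons of any protein-coding transcript and 27343 bases in the rest of the gene. The other 20112 protein-coding genes had medians of 8 exons, 3438 and 23140 bases.

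Stretches of exons and introns named in the results below are shown here as sequence. Each was chosen by its tag count within that exon or intron, and the tags of a transcript are otherwise spread thinly. Capitals mark bases with 2 or more tags over the 12 libraries, and all sequences are GRCh37 in the direction of the transcript. The first 3 are coding: the whole of exon 5 of 14 of DDX56 (chr7:44611946-44612036, minus strand), 100 bases in exon 2 of 14 of DHX15 (chr4:24577900-24577999, minus strand) and 100 bases in exon 2 of 17 of DHX34 (chr19:47856391-47856490, plus strand). The next are 30 bases of the 3' UTR in exon 17, the last, of DDX3X (chrX:41209144-41209173, plus strand) and 30 bases of the 5' UTR in exon 1 of DHX9 (chr1:182808499-182808528, plus strand). The last is 100 bases in intron 6 of DHX9 (chr1:182823652-182823751, plus strand).
DDX56 exon 5: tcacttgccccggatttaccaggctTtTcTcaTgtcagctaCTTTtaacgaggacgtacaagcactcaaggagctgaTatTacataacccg
DHX15 exon 2: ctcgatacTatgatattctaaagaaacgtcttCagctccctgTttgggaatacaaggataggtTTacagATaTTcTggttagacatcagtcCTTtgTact
DHX34 exon 2: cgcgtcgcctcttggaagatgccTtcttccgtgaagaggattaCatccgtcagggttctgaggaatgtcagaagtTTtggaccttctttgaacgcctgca
DDX3X exon 17: tagttgtgtGTTTTTTTtttTttttcagtg
DHX9 exon 1: tccatgcgagTtgctgtgcgtttctctgTT
DHX9 intron 6: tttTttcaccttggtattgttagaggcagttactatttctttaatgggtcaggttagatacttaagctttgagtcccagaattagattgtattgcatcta

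In DDX56 exon 5 the 51 tags came to 35 in Alyref, 14 in Chtop, 1 in Nxf1 and 1 in Control libraries. The DHX15 stretch held 24, 26, 1 and 0 tags in the same order, and the DHX34 stretch 4, 16, 1 and 1. The DHX9 intron 6 stretch held only 6, 0, 0 and 1 tags, with 1 base of 2 or more tags. The DDX3X 3' UTR stretch, a run of T with a G before it, held 18 Alyref, 25 Chtop, 0 Nxf1 and 3 Control tags. The G of that stretch (position 41209153) was the base with most tags of any helicase gene, with 6 tags in Alyref replicate 2 and with 3 and 4 in Chtop replicates 2 and 3. The DHX9 5' UTR stretch held 11 Alyref, 0 Chtop, 2 Nxf1 and 0 Control tags. Such heaps were rare: 96.63% of the crosslinked bases of Alyref in helicase genes held a single tag and the highest held 6, and in Chtop these values were 96.32% and 7, in Nxf1 98.38% and 3, and in Control 96.72% and 5. Over exons, T made up 49.7% of crosslinked bases in Alyref, 54.6% in Chtop, 56.1% in Nxf1 and 40.3% in Control, against 25.3% of all exonic bases of the canonical transcripts, and over introns 61.3%, 60.3%, 61.1% and 62.2%, against 31.9%. In introns the excess of T was thus present in all 3 Control libraries too, at 58.3%, 58.0% and 69.2%. In exons the Control value rested on 67 bases. T made up 56.25% of 16 in replicate 1, 24.2% of 33 in replicate 2 and 55.6% of 18 in replicate 3. Replicate 2 thus showed no excess in exons. The other protein-coding genes had 50.5%, 55.5%, 50.4% and 46.0% in exons.

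Helicase genes took a small and similar part of every library. Their share was 0.401% ± 0.0368 of all tags in Alyref (SD, n = 3), 0.335% ± 0.0518 in Chtop, 0.303% ± 0.0696 in Nxf1 and 0.313% ± 0.0801 in Control, so the groups differed by about their spread. Pooled over replicates there were 5457 Alyref, 3672 Chtop, 814 Nxf1 and 256 Control tags. The number of genes with a tag went with depth, at 49, 47, 46 and 38, and 13 genes had 0 Control tags. The 12 genes with highest CPM held 56.75% of the 10199 tags. By pooled CPM, DHX9, which unwinds double-stranded RNA, led in Alyref with 299 CPM, DHX15, the helicase that takes the spent spliceosome apart, led in Chtop with 372, DDX3X, a translation factor, led in Nxf1 with 196, and DDX46, which helps U2 snRNP to join the intron, led in Control with 408. The other 8 of the 12 were DDX56, DDX21, DDX42, DDX11, DHX30, DDX6, DDX10 and DHX34.

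**Figure D1:**
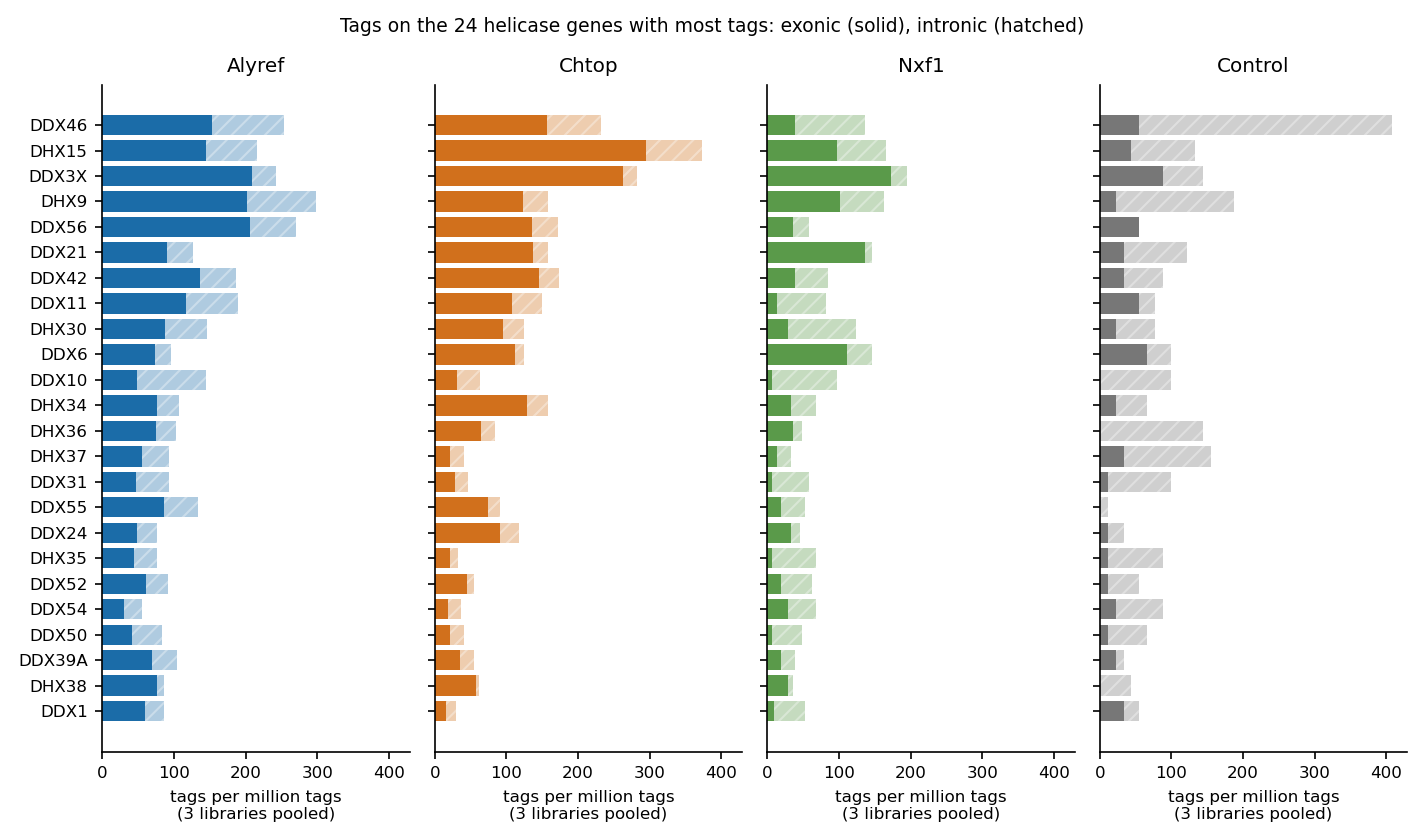
CPM, tags per 1000000 tags (x axis, 3 libraries pooled per group) on the 24 helicase genes with the highest mean CPM over the groups. Exonic tags are solid and intronic tags hatched, with 1 panel per group. DDX46 reached 408 CPM in Control, nearly all of it intronic, while DHX15 reached 372 CPM in Chtop, mostly exonic.

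Tags were called exonic when they lay in an exon of a protein-coding transcript and intronic when they lay elsewhere in the gene. The intronic share of helicase tags was 31.1%, 31.1% and 36.2% in the 3 Alyref libraries, 21.5%, 26.8% and 16.3% in the Chtop libraries, 23.3%, 42.3% and 60.3% in the Nxf1 libraries and 42.9%, 76.3% and 78.7% in the Control libraries. The Alyref and Chtop libraries did not overlap, with means of 32.8% ± 2.93 and 21.5% ± 5.29 (SD, n = 3), but 3 libraries against 3 cannot go below p = 0.1 in a two-sided exact permutation test. The Nxf1 libraries ran from within the Chtop range to within the Control range, and none lay within the Alyref range. In each of the 12 libraries the share was lower than in the other protein-coding genes, which had 40.8%, 44.8% and 50.7% in Alyref, 39.7%, 34.3% and 22.7% in Chtop, 36.2%, 56.8% and 73.4% in Nxf1 and 54.8%, 78.2% and 83.0% in Control. Per kilobase of intron, helicase genes held 0.719 CPM in Alyref, 0.407 in Chtop, 0.704 in Nxf1 and 1.06 in Control, more than the 0.303, 0.191, 0.333 and 0.389 of the other genes. Middle exons also held more, at 15.9, 12.9, 5.71 and 3.21 CPM per kilobase against 8.35, 7.78, 3.12 and 2.07. The excess was thus neither limited to introns nor absent from Control, and the length of the other genes includes genes that held no tag.

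**Figure D2:**
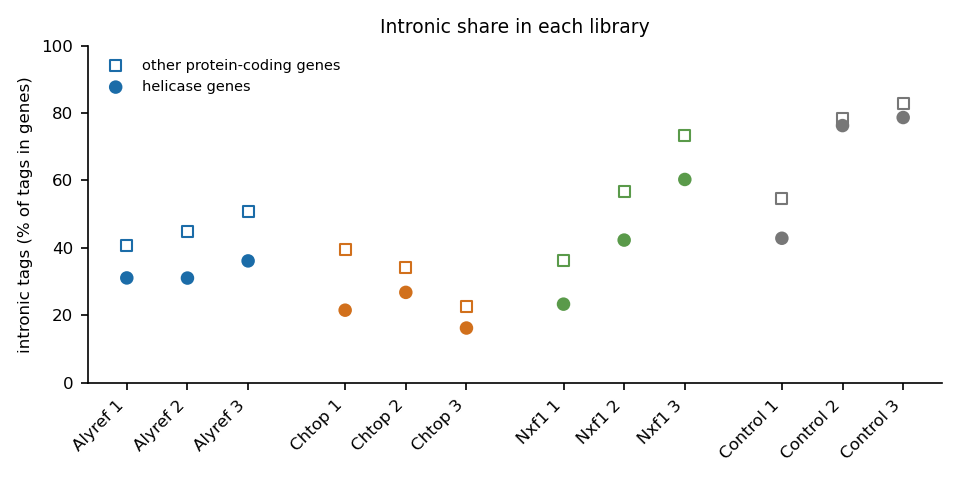
Intronic tags as a percentage of the tags in genes (y axis) in each of the 12 libraries (x axis), for the helicase genes (filled circles) and the other protein-coding genes (open squares). Every filled circle lies below its square, and the Chtop circles, at 16.3% to 26.8%, lie below the Alyref circles.

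Gene by gene, the intronic share was lower in Chtop than in Alyref in 29 of the 36 genes with at least 30 tags in both (80.6%), with medians of 21.7% and 33.5%. Among the other genes this held in 5159 of 5821 (88.6%, medians 28.6% and 43.6%). Of the helicase genes with at least 100 Alyref tags, the intronic share in Alyref was highest in DDX10 (66.5%), DDX31 (61 of 122 tags) and DDX50 (55 of 110), DHX35 (41.0%) and DHX37 (40.2%). It was lowest in DHX38 (12.3%), the helicase of the second splicing step, DDX3X (13.8%), DDX56 (23.6%), DDX6 (23.8%), an mRNA repression and decay factor, and DDX42 (26.9%). The DDX3X value depends on the exon definition, since tags in canonical introns that another coding isoform keeps counted as exonic. Only 229 of its 319 Alyref tags lay in exons of the canonical transcript. Over the 24 genes with at least 100 Alyref tags, the intronic share was larger where introns were longer (Spearman's rho = 0.558, Pearson's r = 0.642 on log10 length). This describes genes that share the same libraries.

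By role, the 9 spliceosomal genes had 1410 Alyref, 1064 Chtop, 201 Nxf1 and 80 Control tags, with 29.98% ± 3.29, 23.3% ± 5.17, 38.7% ± 34.4 and 76.6% ± 12.3 in introns (SD, n = 3). The 16 genes of ribosome assembly and the nucleolus had 1821, 1032, 251 and 75 tags, with 37.5% ± 2.97, 22.5% ± 7.95, 56.3% ± 13.5 and 73.8% ± 7.29 in introns. The 11 genes of mRNA export, translation and decay had 1509, 1028, 239 and 73 tags, with 25.8% ± 2.22, 18.0% ± 5.13, 24.2% ± 21.6 and 50.9% ± 36.4 in introns. In each of these roles the mean intronic share was lower in Chtop than in Alyref, though with 3 libraries a group the spread of Chtop was wide. The mitochondrial genes DDX28 and DHX30, of which DDX28 is a single exon, had 205, 145, 42 and 7 tags, and the innate sensing genes DHX58, DDX60 and DDX60L had 42, 40, 10 and 5.

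To ask which helicase transcripts each factor held beyond the Control, exonic and intronic tags of every gene were fitted in edgeR over all 12 libraries. The filter on low counts kept 2729 rows (the exonic or the intronic tags of 1 gene), of which 14 belonged to helicase genes out of 92 with any tag, and a call is an adjusted p under 0.05 in edgeR's quasi-likelihood test with Benjamini-Hochberg adjustment. Because the 14 rows passed on depth, they are the most abundant rows and do not stand for the family. With edgeR's TMM scaling the median log2 fold change of all rows was 0.45 for Alyref against Control, 0.12 for Chtop against Control, 0.41 for Nxf1 against Control and 0.25 for Alyref against Chtop, and with DESeq2's size factors in the same fit it was 0.29, 0.48, 0.13 and -0.25, so changes of helicase rows in the fit over 12 libraries are also given relative to the TMM median of their comparison.

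Against Control, Alyref was called in 3 of the 14 helicase rows, 2 higher and 1 lower, where 14.5% of all rows were called. DHX9 exonic tags numbered 19, 141 and 105 in the Alyref libraries and 1, 1 and 0 in the Control libraries. In CPM these were 234, 223 and 174 against 143, 21.4 and 0, and the groups did not overlap, although the highest Control value was a single tag. The log2 fold change was 3.34 ± 0.91 (SE; 2.89 relative to the median, edgeR adjusted p = 0.0153). With 2 Control tags the pooled ratio of 9.12 had an exact 95% Clopper-Pearson interval of 2.50 to 75.7, for counting error only. DDX56, a nucleolar helicase of large-subunit assembly, had 15, 152 and 105 exonic tags in Alyref and 0, 4 and 1 in Control, or 185, 241 and 174 against 0, 85.8 and 27.0 CPM. Its log2 fold change was 2.04 ± 0.73 (1.60 relative to the median, edgeR adjusted p = 0.0420). With the DESeq2 size factors that call was lost, at an edgeR adjusted p of 0.0888. When 1 library was left out at a time, the DHX9 call was lost without Alyref replicate 2 or Control replicate 2 (edgeR adjusted p = 0.0748 and 0.103), and the DDX56 call was lost in 6 of 12 refits, without replicate 2 of any group or replicate 3 of Alyref or Nxf1 (0.0562 to 0.177).

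DDX46 went the other way in its introns. It had 2, 80 and 50 intronic tags in Alyref and 3, 17 and 12 in Control, which are 24.6, 127 and 82.9 CPM against 428, 365 and 325. All 3 Control libraries lay above all 3 Alyref libraries, and the log2 fold change was -1.81 ± 0.52 (SE; -2.26 relative to the median, edgeR adjusted p = 0.0172). Of the 32 Control tags there, 8 lay in intron 6, and 4 of those fell in a single 100-base stretch in Control replicate 3 alone. The exonic tags of DDX46 did not pass the threshold, with 153 CPM pooled in Alyref and 55.2 in Control (log2 fold change 1.55 ± 0.75, 1.098 relative to the median, edgeR adjusted p = 0.133). The call on DDX46 introns was lost without any 1 of the Alyref or Control libraries (edgeR adjusted p = 0.0742 to 0.224), with the same sign each time.

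Chtop was called against Control in 7 of 14 rows, 5 higher and 2 lower, where 47.8% of all rows were called. DHX15 exonic tags numbered 14, 149 and 136 in Chtop and 1, 2 and 1 in Control, or 298, 277 and 317 against 143, 42.9 and 27.0 CPM. The groups were apart and the log2 fold change was 2.98 ± 0.78 (SE; 2.86 relative to the median, edgeR adjusted p = 0.00145). DHX34, a factor of nonsense-mediated decay, had 4, 72 and 55 exonic tags in Chtop and 0, 2 and 0 in Control, with a log2 fold change of 2.71 ± 0.94 (2.58 relative to the median, edgeR adjusted p = 0.0138). Its pooled ratio of 5.85 had an interval of 1.59 to 48.8. With 1 library left out, DHX15 was called in all 12 refits and DHX34 in all 6 refits in which it passed the filter. DHX9 had 5, 68 and 52 exonic tags in Chtop (log2 fold change 2.64 ± 0.97, 2.51 relative to the median, edgeR adjusted p = 0.0201), and its pooled ratio to the 2 Control tags was 5.58 (1.51 to 46.6). That call was lost without Control replicate 2 (edgeR adjusted p = 0.0878).

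DDX21, a helicase of rRNA synthesis and processing, had 9, 73 and 57 exonic tags in Chtop and 1, 0 and 2 in Control, with a log2 fold change of 2.31 ± 0.86 (2.19 relative to the median, edgeR adjusted p = 0.0202) and a pooled ratio of 4.13 (1.39 to 20.3). DDX42, a helicase found with U2 snRNP, had 3, 67 and 78 exonic tags against 1 in each Control library, with a log2 fold change of 2.28 ± 0.85 (2.16 relative to the median, edgeR adjusted p = 0.0210) and a pooled ratio of 4.40 (1.48 to 21.6). The lone tag of Control replicate 1, which is 143 CPM in a library of 7017 tags, put that library above all 3 Chtop libraries for DHX9 exons (106, 126 and 121 CPM) and within the Chtop range for DDX21 (191, 136 and 133) and DDX42 (63.8, 124 and 182), so these groups overlapped. The rows that were lower in Chtop were intronic. DDX46 had 4, 48 and 24 intronic tags (85.0, 89.1 and 55.9 CPM), all below Control, with a log2 fold change of -2.00 ± 0.54 (-2.12 relative to the median, edgeR adjusted p = 0.00193). DHX9 had 2, 22 and 11 intronic tags in Chtop and 1, 11 and 3 in Control, or 42.5, 40.8 and 25.6 against 143, 236 and 81.1 CPM (log2 fold change -2.00 ± 0.66, -2.13 relative to the median, edgeR adjusted p = 0.00956). DHX9 was thus higher than Control in its exons and lower in its introns in the same Chtop libraries. The other protein-coding genes moved the same way, with 22.7% to 39.7% of tags in introns in Chtop and 54.8% to 83.0% in Control. CPM are shares of a library, so lower CPM do not mean fewer bound molecules than in Control. Without Control replicate 2 the calls on DDX21 and DDX42 were lost (edgeR adjusted p = 0.216 and 0.128), that on DDX42 also without Chtop replicate 3 (0.0936). DDX46 introns lost the call without any 1 Control library or Alyref replicate 1 (0.0506 to 0.0924), and DHX9 introns lost it in 9 of 12 refits, holding it without Chtop replicate 1, Nxf1 replicate 1 or Nxf1 replicate 3 (otherwise 0.0507 to 0.533).

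Nxf1 was called against Control in 0 of the 14 rows by edgeR, where 0.147% of all rows (4) were called, and 4 of the 14 had an unadjusted p under 0.05. DESeq2 also called 0. The nearest were DDX21 exonic tags (1, 22 and 19 in Nxf1, log2 fold change 2.42 ± 0.88, 2.01 relative to the median, edgeR adjusted p = 0.277), DHX9 exonic tags (3, 15 and 13, log2 fold change 2.67 ± 1.02, 2.26 relative, edgeR adjusted p = 0.279) and DDX46 intronic tags (0, 16 and 14, log2 fold change -1.40 ± 0.57, -1.82 relative, edgeR adjusted p = 0.297). DDX46 introns lay below Control in all 3 Nxf1 libraries, as they did in the Alyref and Chtop libraries, and the 3 comparisons share their Control libraries.

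**Figure D3:**
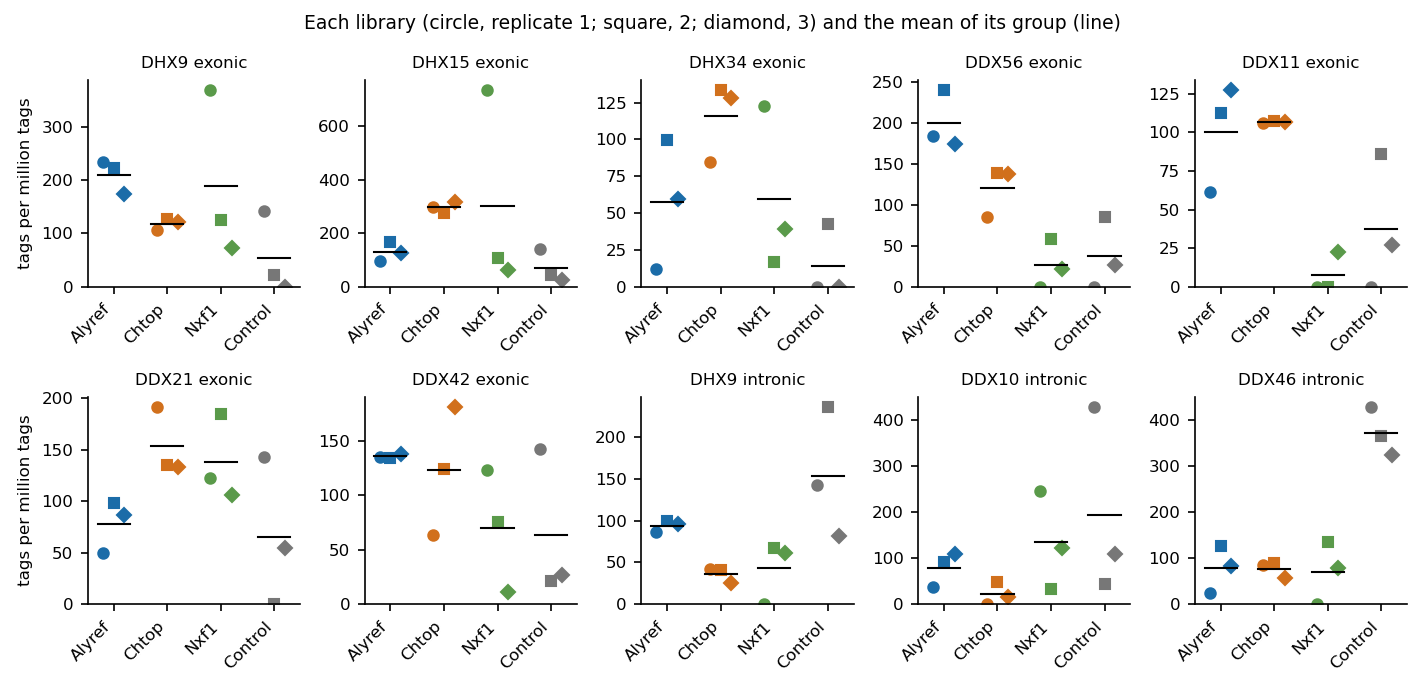
CPM (y axis) in each library (circle, replicate 1; square, replicate 2; diamond, replicate 3) for 10 helicase rows called in at least 1 comparison, with the mean of each group as a line. Control replicate 1 and Nxf1 replicate 1 are high wherever they hold a tag, because 1 tag is 143 CPM in the former and 3 tags are 369 CPM in the latter; DDX46 introns are highest in all 3 Control libraries.

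Without the 4 shallow replicate 1 libraries, a choice made after the data were seen, many more rows passed the filter. Alyref was then called against Control in 5 of 59 helicase rows, where 4.58% of all rows were called: the exons of DHX9, DDX3X, DDX55 and DHX38 were higher and the introns of DHX36, a G-quadruplex helicase, were lower (log2 fold change -2.13 ± 0.68, edgeR adjusted p = 0.0435). DDX55, a nucleolar helicase, and DHX38 had 0 exonic Control tags in these libraries. DDX46 introns and DDX56 exons were no longer called. Chtop was called against Control in 22 of 59 rows, where 27.3% of all rows were called. The 17 exonic rows were all higher, among them DHX15 (log2 fold change 3.51 ± 0.80, edgeR adjusted p = 0.000408) and DDX3X (3.98 ± 0.88, edgeR adjusted p = 0.000258), and the 5 intronic rows, of DHX36, DDX46, DHX37, DHX9 and DHX35, were all lower. In these libraries the other protein-coding genes also had fewer tags in introns in Chtop (34.3% and 22.7%) than in Control (78.2% and 83.0%), as shares. Some of the Control's intronic tags in these genes came as heaps from 1 library: 8 of 14 Control tags of DHX37 lay within 100 bases of intron 5 in replicate 3, 5 of 8 of DHX35 within 100 bases of intron 3 in replicate 3, and 5 of 13 of DHX36 on 1 base of intron 13 in replicate 2. Their part in the result was not tested.

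Alyref and Chtop were then compared with each other. Of the 14 rows, 2 were called, where 9.75% of all rows were called, and both were introns higher in Alyref. DHX9 intronic CPM were 86.1, 99.7 and 96.1 in Alyref and 42.5, 40.8 and 25.6 in Chtop, with no overlap. The log2 fold change was 1.40 ± 0.49 (SE; 1.15 relative to the median, edgeR adjusted p = 0.0487). DDX10, a helicase of small-subunit assembly, had 3, 58 and 66 intronic tags in Alyref and 0, 26 and 7 in Chtop, or 36.9, 91.8 and 109 against 0, 48.3 and 16.3 CPM. Its groups overlapped, and the log2 fold change was 1.50 ± 0.50 (1.25 relative to the median, edgeR adjusted p = 0.0361). Neither row was higher in Alyref than in Control by pooled CPM. DHX9 introns had 97.2 in Alyref, 34.5 in Chtop and 165.5 in Control. DDX10 introns had 96.5 in Alyref, 32.5 in Chtop, 91.3 in Nxf1 and 99.3 in Control. With DESeq2's size factors both changes kept their sign but were not called, at 0.92 and 1.04 with edgeR adjusted p of 0.256 and 0.180, and 3 other helicase rows, the exons of DDX21, DHX34 and DHX15, were then called lower in Alyref. When 1 library was left out, DHX9 introns were called in 2 of 12 refits, without Nxf1 replicate 1 or Control replicate 3, and the edgeR adjusted p was 0.0514 to 0.498 in the others. DDX10 introns lost the call in 7 of 12, without Alyref replicate 2 or 3, any Chtop library, or Nxf1 replicate 2 or 3 (edgeR adjusted p = 0.0705 to 0.581).

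Fitted over the 6 Alyref and Chtop libraries alone, 63 helicase rows passed the filter and 5 were called, where 12.4% of all rows were called. Higher in Alyref were DDX1 exons, a helicase of the tRNA ligase complex, with 2, 43 and 33 tags against 1, 8 and 7 (log2 fold change 1.70 ± 0.48, edgeR adjusted p = 0.0207), and again the introns of DHX9 (1.37 ± 0.40, adjusted p = 0.0246) and DDX10 (1.44 ± 0.45, adjusted p = 0.0347). Higher in Chtop were DHX15 exons, at 298, 277 and 317 CPM against 98.4, 168 and 126 in Alyref (log2 fold change of Alyref over Chtop -1.22 ± 0.34, edgeR adjusted p = 0.0189), and DDX59 exons, with 1, 15 and 18 tags against 0, 9 and 7 (-1.59 ± 0.52, edgeR adjusted p = 0.0421). For DHX15 and DDX1 exons, DHX9 introns and DDX59 exons the libraries of the 2 factors did not overlap in CPM.

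Alyref and Chtop were also set against Nxf1. The median log2 fold change of all rows was -0.07 for Alyref and -0.38 for Chtop with TMM, and 0.06 and 0.26 with DESeq2's size factors. Alyref was called in 2 of 14 rows, where 11.2% of all rows were called, and both were higher: DDX11 exons, a DNA helicase gene, with 5, 71 and 77 tags against 0, 0 and 4 (log2 fold change 2.71 ± 0.75, 2.78 relative to the median, edgeR adjusted p = 0.00975), and DDX56 exons, against 0, 7 and 4 Nxf1 tags (2.18 ± 0.60, 2.25 relative, edgeR adjusted p = 0.0101). Chtop was called in 6 of 14 rows, where 55.2% of all rows were called. DDX11 exons again led, with 5, 58 and 46 Chtop tags (log2 fold change 2.79 ± 0.75, 3.17 relative to the median, edgeR adjusted p = 0.00197), followed by the exons of DHX34, DDX46, DDX56 and DDX42 at 1.57 to 1.67 (1.95 to 2.05 relative, edgeR adjusted p = 0.0171 to 0.0220). DDX10 introns were lower in Chtop than in Nxf1 (-1.85 ± 0.58, -1.47 relative, edgeR adjusted p = 0.00650), but with DESeq2's size factors that call was lost, at -1.25 and an edgeR adjusted p of 0.0884. With those size factors 6 helicase rows were called, all of them exonic and higher in Chtop, and over all rows 103 were lower and 1045 higher, against 697 and 809 with TMM. DDX11 in both comparisons and DHX34 were called in all 6 single-library refits in which they passed the filter, while DDX42, DDX46 and DDX56 lost the call in Chtop without Chtop replicate 3 or Nxf1 replicate 3 (edgeR adjusted p = 0.0654 to 0.287). DDX56 lost it in Alyref without Alyref replicate 2 or Nxf1 replicate 3 (0.140 and 0.259), and DDX10 without Alyref replicate 2 or 3, Chtop replicate 3 or Nxf1 replicate 3 (up to 0.667). The exons of DDX21, DDX3X and DDX6 were not called against Nxf1 for Alyref or Chtop, and DDX6 had 111 CPM pooled in Nxf1, 72.9 in Alyref and 112 in Chtop.

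The position of the exonic tags within the transcripts differed between Alyref and Chtop. The last exon held 23.2%, 21.1% and 23.3% of the exonic tags of helicase genes in the Alyref libraries and 30%, 37.5% and 43.6% in the Chtop libraries, and 35.9% ± 7.52 in Nxf1 and 47.2% ± 12.01 in Control (SD, n = 3). Every Chtop library lay above every Alyref library. In the other protein-coding genes the means were 32.1%, 51.1%, 50.1% and 44.1%, so helicase genes had a smaller part of their exonic tags in the last exon for both factors. These shares do not take the length of the last exon into account. The first exon held 7.71% ± 0.95 in Alyref and 4.89% ± 1.59 in Chtop. Per kilobase, Alyref had 25.3 CPM in first exons, 15.9 in middle exons and 8.75 in last exons, while Chtop had 15.9, 12.9 and 16.3. In the other genes last exons held less per kilobase, at 3.07 CPM in Alyref and 6.74 in Chtop. Their first and middle exons held less too, at 7.4 and 8.35 in Alyref and 7.2 and 7.78 in Chtop. Coding sequence held 73.3% ± 1.26 of the exonic tags in Alyref and 60.5% ± 5.15 in Chtop. Upstream of exon junctions, the 75 to 24 bases before 415 junctions held 483 of the 1610 Alyref tags within 100 bases of a junction (95% Wilson interval of the share 27.8% to 32.3%), 25.2% in Chtop (22.6% to 27.99%), 26.0% in Nxf1 (19.7% to 33.4%) and 22.2% in Control (9.001% to 45.2%). These intervals cover counting error only. By library the share was 32.1%, 29.9% and 29.9% in Alyref, 40% (14 of 35 tags), 23.5% and 26.0% in Chtop, 15.4%, 26.9% and 27.0% in Nxf1, and 0, 2 and 2 of 6, 7 and 5 tags in Control, so the groups overlapped. The other genes had 29.6%, 25.2%, 26.5% and 28.4%.

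Gene by gene, the last exon's share was higher in Chtop in 22 of the 26 helicase genes with at least 30 exonic tags in both (84.6%), with medians of 34.3% and 23.6% beside 32.8% of the exonic length. In the other genes this held in 3222 of 3667 (87.9%, medians 57.4% and 32.9%). DDX23, a spliceosomal helicase, had 36.5% in Alyref and 78.4% in Chtop, DDX3X 52.0% and 72.0%, DDX42 49 of 175 tags and 53.8%, and DHX9 9.06% and 24.8%. DHX57, DDX10, DHX34 and DHX8 had the lower share in Chtop, among them DHX57 with 14 of 50 tags in Alyref and 14.5% in Chtop.

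**Figure D4:**
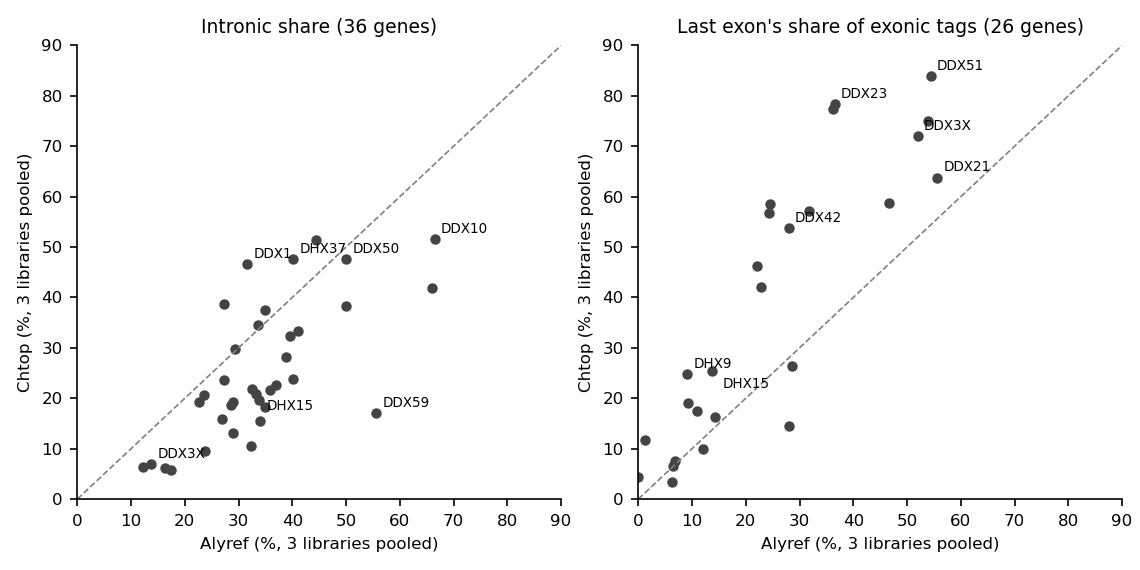
Each point is 1 helicase gene: its intronic share of tags (left, 36 genes) and its last exon's share of exonic tags (right, 26 genes), Alyref on the x axis and Chtop on the y axis, in % with 3 libraries pooled, and the dashed line marks equal shares. Of the points, 29 of 36 lie below the line on the left and 22 of 26 lie above it on the right.

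Single exons and introns of the canonical transcripts were tested in the same way to see where in a transcript the difference lay. The filter on low counts kept 798 of them over the 12 libraries and 1 was of a helicase gene, exon 17 of DDX3X (chrX:41206893-41209527, 2635 bases, mostly 3' UTR). It held 8, 63 and 48 tags in Alyref, 2, 84 and 102 in Chtop, 2, 10 and 11 in Nxf1 and 3, 0 and 2 in Control. In CPM the Chtop libraries had 42.5, 156 and 237 and the Control libraries 428, 0 and 54.1, so the groups overlapped, with Control replicate 1 above all 3 Chtop libraries. Chtop was called against Control there, where 49.1% of all single exons and introns were called (log2 fold change 2.50 ± 0.96, 0.78 relative to the median, edgeR adjusted p = 0.0202). The call was lost without any 1 Alyref library, Chtop replicate 3, Nxf1 replicate 2 or Control replicate 3 (edgeR adjusted p = 0.0673 to 0.222). Alyref was not called against Control (0.0% of all called by edgeR and by DESeq2, 185 of 798 at an unadjusted p under 0.05 in edgeR) or against Chtop (36.0% of all called).

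Over the 6 Alyref and Chtop libraries alone, 28 helicase exons and introns passed and 4 were called, all higher in Alyref, where 22.8% of all were called. Intron 6 of DHX9 (chr1:182823314-182825666) had 4, 13 and 18 Alyref tags and 1, 1 and 3 Chtop tags (log2 fold change 2.94 ± 0.63, edgeR adjusted p = 0.0118). It held 27.3% of the Alyref tags in introns of the canonical transcript, with 2 Nxf1 and 1 Control tag. Intron 13 of DDX10 (chr11:108594190-108709172), 114983 bases long, had 0, 28 and 37 Alyref tags and 0, 13 and 3 Chtop tags (2.16 ± 0.63, edgeR adjusted p = 0.0280), and held 50.8% of the Alyref tags in introns of the canonical transcript. Pooled, that intron had 49.4 CPM in Alyref, 15.8 in Chtop, 42.4 in Nxf1 and 66.2 in Control (6 tags), so Alyref was not above Control. In DDX56, exon 4 had 3, 16 and 12 against 0, 7 and 4 tags (1.70 ± 0.51, edgeR adjusted p = 0.0299) and exon 5, shown above in full, 2, 17 and 16 against 2, 9 and 3 (1.49 ± 0.52, edgeR adjusted p = 0.0470). Per kilobase, exon 5 of DDX56 had 292 CPM in Alyref and 152 in Chtop.

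**Figure D5:**
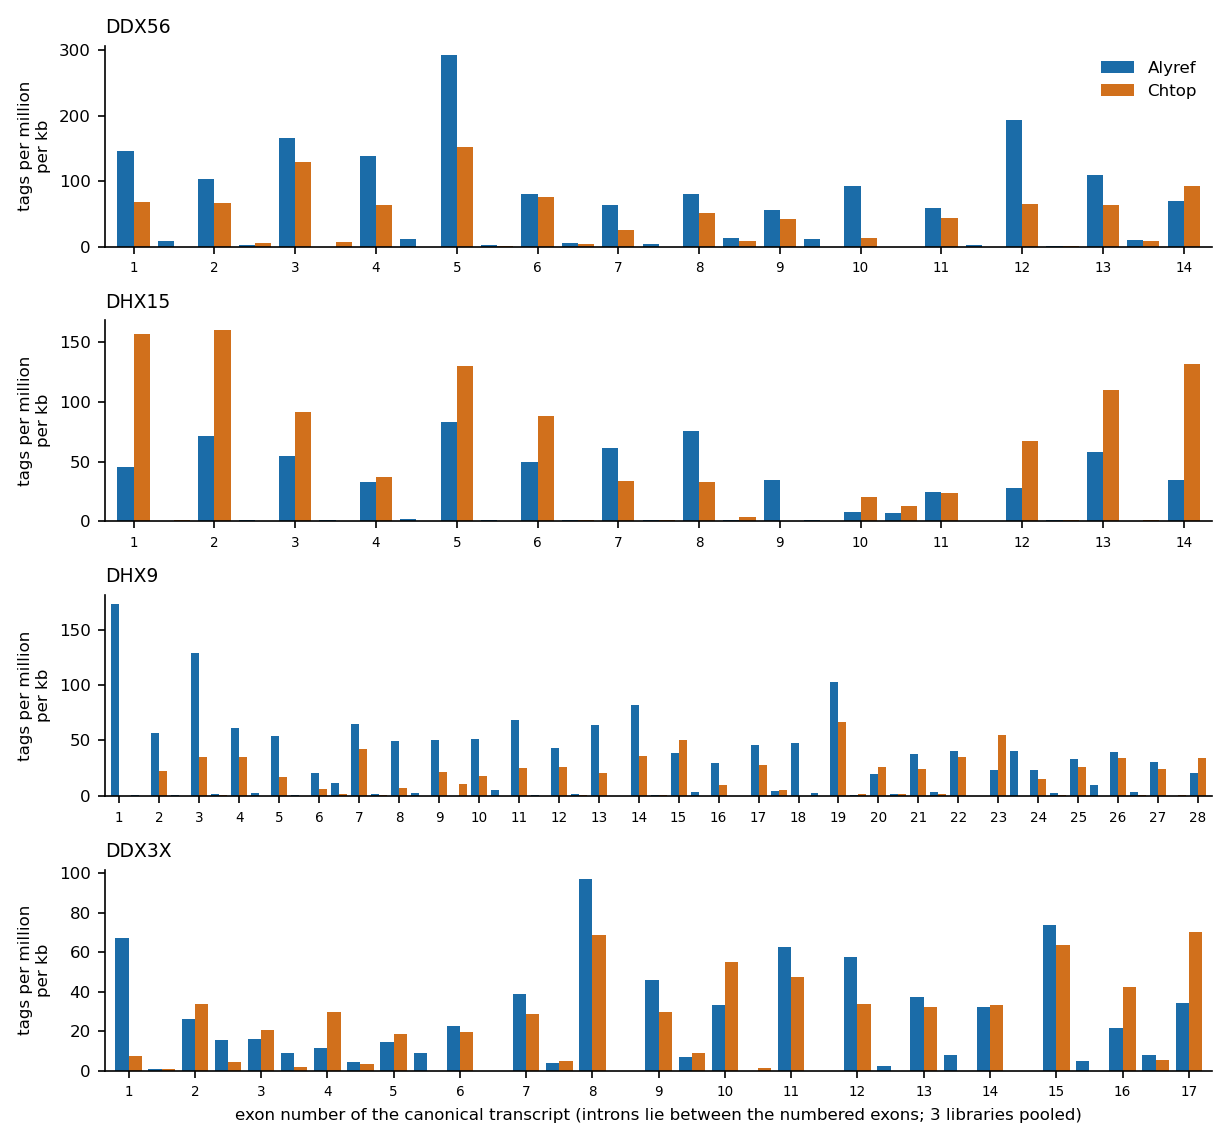
CPM per kilobase (y axis, 3 libraries pooled) along the exons of DDX56, DHX15, DHX9 and DDX3X, numbered from the 5' end (x axis), with introns between them, for Alyref (blue) and Chtop (orange). DDX56 exon 5 reached 292 in Alyref, DHX9 exon 1 had 173 in Alyref and 0 in Chtop, and the last exons of DHX15 and DDX3X, at 132 and 70.3, were higher in Chtop.

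The exons at the ends of the other transcripts did not pass the filter over the 12 libraries, and their tags are given first. Exon 1 of DHX9, 110 bases, held 1, 11 and 13 Alyref tags and 0 Chtop tags in all 3 libraries. Exon 14 of DHX15, its last, held 2, 17 and 7 Alyref and 2, 31 and 43 Chtop tags, and exon 2, which holds the stretch shown above, 0, 25 and 16 against 4, 34 and 33. Without the 4 replicate 1 libraries, a choice made after the data were seen, 20 helicase exons and introns passed and 4 were called between Alyref and Chtop, where 25.5% of all were called. The last exons of DHX15 (log2 fold change -2.11 ± 0.60, edgeR adjusted p = 0.00847) and of DDX51, a nucleolar helicase (-1.64 ± 0.58, edgeR adjusted p = 0.0267), and exon 2 of DHX34 (-1.47 ± 0.57, edgeR adjusted p = 0.0414) were then higher in Chtop, and intron 13 of DDX10 was higher in Alyref (1.65 ± 0.62, edgeR adjusted p = 0.0370). The last exons of DDX46 (44 Alyref, 73 Chtop tags), DDX21 (65 and 88), DDX42 (49 and 78) and DDX51 (31 and 68) also had more Chtop than Alyref tags although the Chtop libraries were the shallower. Those of DDX46, DDX21 and DDX42 were not called in that fit (edgeR adjusted p = 0.0744, 0.199 and 0.0932). Over the 6 Alyref and Chtop libraries alone, the last exons of these genes and of DHX15, and exon 2 of DHX34, were not called (edgeR adjusted p = 0.0592 to 0.739). The introns with most tags per gene included ones that another isoform keeps: intron 2 of DDX3X, with 32 Alyref, 7 Chtop, 5 Nxf1 and 2 Control tags, and intron 6 of DDX24, with 23, 23, 2 and 0. Some tags of DDX3X intron 2 were counted as exonic in the intronic shares above. In DDX56, 75 of the intronic tags lay outside the canonical transcript.

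Other genes of RNA unwinding gave a point of comparison. Of 14 RNA helicases with other names, 7 genes and 8 rows passed the filter: 4 rows were higher and 0 lower in Alyref against Control, 6 and 0 in Chtop against Control, 0 and 0 in Nxf1 against Control and in Alyref against Chtop, 4 and 0 in Alyref against Nxf1, and 7 and 0 in Chtop against Nxf1. SNRNP200, the helicase that unwinds U4 from U6, had a log2 fold change of 2.93 ± 0.84 in Alyref (edgeR adjusted p = 0.0172) and 2.90 ± 0.85 in Chtop (edgeR adjusted p = 0.00392) over Control. Of 21 annotation entries for cofactors of RNA helicases, 6 rows of 5 genes passed. Of these rows 2 were higher in Alyref and 3 higher in Chtop over Control, and 0 were lower. CNOT1, the scaffold that binds DDX6, was higher in both (2.37 ± 0.70 and 2.48 ± 0.71, edgeR adjusted p = 0.0191 and 0.00297). These lists were short and their rows again the abundant ones.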

How the data were processed

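Per the labels, the deposited bed files hold counts of crosslink tags per base for 12 libraries, merged from 32 lane runs; each was a sample of HEK293T cells. The authors trimmed reads with Reaper, kept reads over 15 bases, aligned them to hg19 with Ensembl 75 junctions, kept unique alignments and removed PCR copies by molecular barcode; the submitters' notes name STAR 2.4.2a, Bowtie 1.1.2 and UMI-tools 0.5.3. Here the counts were summed on the gene strand over the GRCh37 annotation (GENCODE 44 lifted to GRCh37), and tags in several genes were left out. Counts were fitted in edgeR 4.0.16 (R 4.3.3; quasi-likelihood, TMM, filterByExpr, group only, all 12 libraries), with DESeq2 1.42.0 as an alternative; the fit was tested on simulated data. Named genes were the 12 with the highest mean CPM over the groups, those called, the 5 highest and 5 lowest intronic shares, and the leading genes of each role. Members and lists were chosen with earlier results of these data known.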

Additional observations from a re-analysis of the deposited data

How the results depend on the processing

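Over the 12 libraries 14 of 92 helicase rows and 1 single exon could be tested, and Control held 256 helicase tags. The number tested moved with the alternative: 92 rows without the filter on low counts, 59 without the 4 replicate 1 libraries, 11 to 25 with 1 library left out, 15 with tags of several genes counted for each, and 4, 2, 1, 63, 13 and 13 from the 2 groups alone in the order of the comparisons below. Of single exons and introns it was 1206, 20, 2 to 6, 2, and 0, 0 and 28. Counts over different numbers of rows are not comparable. The share of all rows called moved as well. In Alyref against Control it was 14.5% in the reported fit and 4.58% without the 4 replicate 1 libraries. It is not given for each refit below, so those counts do not show that helicase rows moved apart from the other rows. All rows tested numbered 2729 in the reported fit, 43890 without the filter and 10457 without the replicate 1 libraries. Of the 425 refits of the 21 called values, 315 kept the call, 110 kept only the direction and 0 changed sign. DHX15 exons in Chtop against Control were called in all 22 of 22 refits, while the DHX9 and DDX10 introns in Alyref against Chtop were called in 3 and 7 of 22. Helicase calls in Alyref against Control, 3 in the reported fit, numbered 1 with DESeq2's own test, 20 without a filter on low counts, 5 without the 4 replicate 1 libraries (an alternative chosen after seeing the data) and 0 to 11 when 1 library was left out, with 0 without Alyref or Control replicate 2 and 11 without Alyref replicate 1. Chtop against Control, 7 reported, gave 25 without the filter, 2 from those groups alone, 22 without the replicate 1 libraries and 3 (without Control replicate 2) to 14 (without Nxf1 replicate 1) with 1 library left out. Nxf1 against Control, 0 reported, gave 0 to 2 (2 without Control replicate 1). Alyref against Chtop, 2 reported, gave 0 with DESeq2, without the filter and with the replicate block, 5 from the 6 libraries alone, 1 with each base counted a single time, with all isoforms merged and with canonical exons only, and 0 (without Alyref replicate 2 or 3 or Chtop replicate 1 or 3) to 3 with 1 library left out. Alyref against Nxf1, 2 reported, gave 1 with DESeq2, with all isoforms merged and with canonical exons, and 0 (without Alyref replicate 2 or Nxf1 replicate 3) to 5 with 1 library left out. Chtop against Nxf1, 6 reported, gave 1 from those groups alone, 13 without the replicate 1 libraries and 0 (without Chtop or Nxf1 replicate 3) to 12 with 1 library left out. For single exons and introns, Alyref against Control (0 reported) gave 0 to 1 with 1 library left out; Chtop against Control (1 reported) gave 0 with DESeq2, without the filter and from those groups alone, 10 without the replicate 1 libraries and 0 to 3 with 1 left out; Alyref against Chtop (0 reported) gave 4 from the 6 libraries alone, 1 with tags of several genes counted for each, 4 without the replicate 1 libraries and 0 to 2 with 1 left out. With all isoforms merged, the mean intronic share fell from 32.8% to 24.6% in Alyref and from 21.5% to 16.2% in Chtop. Over all rows, Alyref against Control had 397 calls by TMM, 178 with DESeq2's size factors and 2090 without the filter, Chtop against Control 1304 and 3799 without the filter, and Alyref against Chtop 266 (69 higher), 494 (10 higher) with DESeq2's size factors, 99 with the replicate block and 1317 from the 6 libraries alone. Libraries of the same replicate number deviated from their group means with correlations of -0.413 to 0.375, beside -0.361 to 0.346 for libraries of different number. With sparse counts and 3 libraries a group, this cannot show whether same-numbered libraries shared a batch. The replicate block gave 2, 7, 0, 0, 2 and 6 helicase calls in the 6 comparisons in the order above and 0, 1 and 0 for single exons and introns. Apart from the filter, fewer libraries and the exon definition, the cause was not tested.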
